A study of Mus musculus with 9 samples.

Results

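The genes described here were 10 genes by which mature oligodendrocytes are usually recognised, namely Mog, Mobp, Opalin, Olig1, Olig2, Nkx6-2, Ermn, Hapln2, Klk6 and Aspa. They were picked by symbol, and a probe set was taken as theirs when it was annotated to that gene and to no other. This gave 17 probe sets for the 10 genes, of 34945 such probe sets and 18193 genes on the array. Expression was measured on Affymetrix mouse genome arrays in 9 RNA samples, 3 each of auditory nerve tissue, cultured auditory nerve cells and neurospheres. Every sample came from CBA/CaJ mice of both sexes, 8 to 12 weeks old. Tissue was nerve taken from the temporal bone and used for RNA directly. Cultured cells were dissociated from such nerves and grown for 5 to 7 days with 10% serum until confluent, and the labels describe no sorting for a cell type. Neurospheres were cultured cells moved into a serum-free medium holding heparin at 2 µg/ml, EGF at 20 ng/ml and FGF at 10 ng/ml and kept for 12 further days. The labels did not state how many animals or dishes made up a sample, so the p-values below measure the spread among these samples, which may be technical.

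The auditory nerve is myelinated by a pair of glial cell types. Schwann cells wrap its fibres in the peripheral part within the cochlea, and oligodendrocytes wrap them in the central segment that joins the brainstem, with a sharp border between both. An oligodendrocyte arises from a progenitor under the transcription factors Olig1, Olig2 and Nkx6-2 and then makes compact myelin, whose proteins include some that Schwann cells do not use in quantity, such as Mog and Mobp. The arrays measured RNA of whole samples and carried no position along the nerve, so where in the nerve a transcript lay was not measured. In such samples fewer cells of a type and less RNA per cell cannot be told apart.

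The mouse assembly GRCm38.p6, in RefSeq's annotation, gave a promoter for 9 of the 10 genes, and none was found for Olig1 in the table used here. The 250 bases before the start site are shown for 4 genes, on the strand of the gene. Mog and Mobp are shown as myelin genes that fell to background in culture, Aspa as the gene that stayed above it there, and Opalin as the gene for which neither comparison with tissue passed the test. Capitals mark every match, on either strand, to the SOX factor motifs ACAAAG and ACAATG and to CTGGNAC. The last, with any base at N, is a loose form of the myelin regulatory factor motif. Also marked are the E-boxes CAGCTG and CATATG that proteins of the Olig family can bind, and the homeodomain core TAATTA. The regions were chr17:37023399-37023648 (minus strand) for Mog, chr9:120149492-120149741 (plus strand) for Mobp, chr11:73324638-73324887 (minus strand) for Aspa and chr19:41077114-41077363 (minus strand) for Opalin.
Mog: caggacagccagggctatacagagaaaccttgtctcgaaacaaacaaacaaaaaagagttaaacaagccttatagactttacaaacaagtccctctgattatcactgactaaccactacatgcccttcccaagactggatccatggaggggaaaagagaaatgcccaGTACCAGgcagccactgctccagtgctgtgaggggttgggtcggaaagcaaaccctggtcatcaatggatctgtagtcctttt
Mobp: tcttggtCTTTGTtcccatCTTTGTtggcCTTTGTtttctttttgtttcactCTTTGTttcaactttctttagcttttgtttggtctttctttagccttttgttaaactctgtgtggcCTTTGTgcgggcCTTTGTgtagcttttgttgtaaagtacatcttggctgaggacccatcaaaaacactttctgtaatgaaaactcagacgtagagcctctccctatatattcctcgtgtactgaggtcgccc
Aspa: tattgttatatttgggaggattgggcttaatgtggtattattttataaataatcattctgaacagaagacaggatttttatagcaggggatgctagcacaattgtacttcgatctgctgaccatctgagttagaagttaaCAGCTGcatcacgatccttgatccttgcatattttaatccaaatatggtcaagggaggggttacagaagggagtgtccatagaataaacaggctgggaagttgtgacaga
Opalin: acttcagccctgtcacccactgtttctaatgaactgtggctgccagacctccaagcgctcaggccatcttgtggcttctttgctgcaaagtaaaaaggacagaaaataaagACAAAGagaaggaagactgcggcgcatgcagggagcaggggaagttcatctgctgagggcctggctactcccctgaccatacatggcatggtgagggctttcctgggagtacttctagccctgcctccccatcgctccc

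The Mobp promoter held 6 matches to ACAAAG, all read from the other strand as CTTTGT, and no other of the 32851 mouse promoters of this length held that many. At least 1 match to ACAAAG stood in 16.5% of all promoters and in those of 3 of the genes, Mobp, Opalin and Klk6. The other SOX motif, ACAATG, stood in 10.7% of all promoters and in those of Olig2, Ermn, Hapln2 and Klk6. Mog, Hapln2 and Klk6 held a match to CTGGNAC, as 16.1% of all promoters did. Klk6 had more than 1 promoter and was counted when any of them held a match. Its SOX matches stood in the promoter at chr7:43824294-43824543. Its match to CTGGNAC, which reads CTGGAAC on the other strand, stood in the promoter at chr7:43825200-43825449. CAGCTG, in 13% of all promoters, was found for Hapln2 and Aspa. Neither CATATG (3.46% of all promoters) nor TAATTA (4.84%) was found for any of the 9 genes. Mobp, which fell, and Opalin, which did not pass the test, both held ACAAAG. These matches describe the letters of the window and not the binding of a factor.

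Of the whole set of arrays, replicates correlated at 0.993 to 0.997 over genes and no 2 arrays were identical. A level was read against the signal of 123 probe sets for odorant receptor, vomeronasal receptor and hair keratin-associated genes, which nerve is not known to use. Their 95th percentile, called background here, was 5.68 for tissue, 5.76 for cultured cells and 5.73 for neurospheres (log2). The 3' probe sets of actin exceeded the 5' ones by 2.71 ± 0.345 in tissue, by 0.36 ± 0.037 in cultured cells and by 0.70 ± 0.15 in neurospheres (log2, SD, n = 3), a measure that rises as RNA is shorter or more degraded. This difference ran with tissue against both cultures, and its part in the results below was not tested. All 13 neuron genes and 8 of 9 Schwann cell myelin genes measured were above background in tissue.

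Most of the oligodendrocyte genes were well above background in the tissue and at background in both cultures. In tissue 8 of the 10 genes lay above background, and Opalin and Nkx6-2 did not. In cultured cells Aspa alone lay above it, and in neurospheres Aspa and, by a small margin (5.88 against 5.73), Opalin. The median over all probe sets lay above background too. This median was 6.26 to 6.27 on tissue arrays, 6.19 to 6.20 on cultured cell arrays and 6.15 to 6.19 on neurosphere arrays. The share of all genes above background was not taken. A gene was called when the p of limma, adjusted by Benjamini and Hochberg's method across 18193 genes, was under 0.05 and the groups differed more than 1.5-fold. By this rule 9 of the 10 genes fell in cultured cells against tissue and 0 rose, where 22.0% of all genes fell and 20.4% rose. In neurospheres against tissue 9 of the 10 also fell and 0 rose, where 21.0% of all genes fell and 21.7% rose. The median log2 fold change of the 10 genes was -4.82 in cultured cells and -4.21 in neurospheres, beside -0.0091 and 0.0474 over all genes. Both comparisons used the same 3 tissue arrays, so they are not independent of each other.

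**Figure D1:**
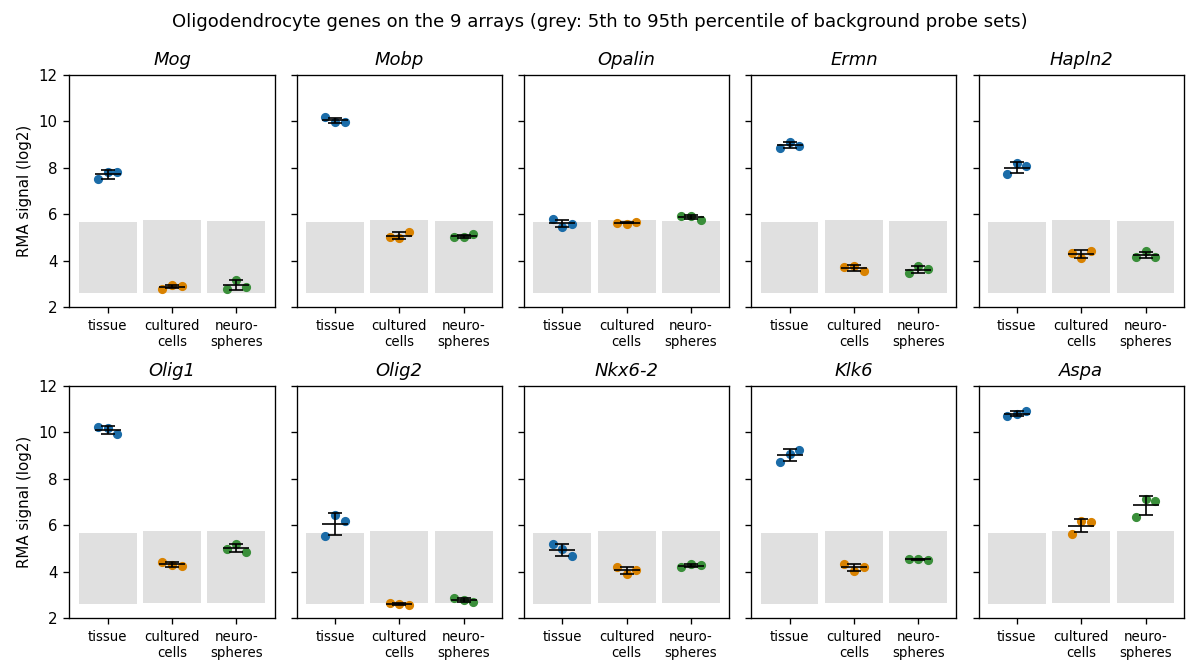
RMA signal (log2) of the 10 genes on the 9 arrays, 1 panel a gene, with points for single arrays, a bar for the mean and whiskers for the SD (n = 3). The grey band spans the 5th to 95th percentile of the background probe sets, and in 8 panels the tissue mean sits above it while the cultures sit inside or just under it, except for Aspa.

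Among the myelin proteins, Mog, a surface glycoprotein of the outermost layer of central myelin, showed a wide gap between tissue and culture. The Mog signal was 7.50, 7.83 and 7.81 on the tissue arrays, 2.81, 2.94 and 2.92 in cultured cells and 2.77, 3.19 and 2.88 in neurospheres (log2, probe set 1448768_at). Every tissue value lay above every culture value, and the cultures overlapped each other within the background range. The log2 fold change was -4.82 ± 0.106 (SE, adjusted p = 4.438e-10) in cultured cells and -4.77 ± 0.137 (adjusted p = 1.184e-08) in neurospheres. A signal within background has no measured level, so against the background level itself Mog was at least 3.89-fold lower in cultured cells and at least 3.96-fold lower in neurospheres.

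Mobp, a small basic protein of compact central myelin, was read by 5 probe sets. The one that was brightest on average (1436263_at) gave 10.17, 9.99 and 9.98 in tissue, 5.02, 4.99 and 5.24 in cultured cells and 5.02, 5.01 and 5.15 in neurospheres. No tissue value came near a culture value, and the log2 fold changes were -4.96 ± 0.10 and -4.99 ± 0.0924. The bound against background was at least 19.6-fold lower in cultured cells and at least 19.9-fold lower in neurospheres. Another probe set, 1433785_at, read 12.39, 12.27 and 12.24 in tissue, 3.74, 3.55 and 3.96 in cultured cells and 3.60, 3.54 and 3.64 in neurospheres. It therefore gave larger changes, of -8.55 and -8.71. The probe sets 1421010_at (-5.69 and -5.53) and 1450088_a_at (-2.77 and -2.81) fell as well. The last, 1441308_at, was within background in every group and did not pass (-0.42 and -0.32).

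Ermn, an actin-binding protein of the oligodendrocyte cytoskeleton, behaved like Mobp. Its signal was 8.86, 9.12 and 8.96 in tissue, 3.72, 3.79 and 3.56 in cultured cells and 3.46, 3.78 and 3.65 in neurospheres (1436578_at). The groups of tissue and culture did not overlap, and both cultures were inside the background range. The log2 fold change was -5.29 ± 0.10 in cultured cells and -5.35 ± 0.113 in neurospheres, or at least 9.33-fold and at least 9.51-fold lower against background. The second probe set, 1440902_at, read 10.50, 10.75 and 10.82 in tissue and at most 2.99 in any culture, with log2 fold changes of -7.92 and -7.87.

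Hapln2, a link protein that holds hyaluronan-bound matrix at the nodes of Ranvier, was 7.75, 8.20 and 8.08 in tissue, 4.32, 4.12 and 4.44 in cultured cells and 4.18, 4.41 and 4.17 in neurospheres (1420962_at). Tissue stood apart from both cultures, with log2 fold changes of -3.72 ± 0.131 and -3.76 ± 0.131 and bounds of at least 4.77-fold and at least 4.86-fold lower. The second probe set, 1420963_at, fell by less, with -1.17 and -1.10, and its tissue mean was itself within background. As the mean of both probe sets Hapln2 changed by -2.44 and -2.43.

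Opalin, a transmembrane glycoprotein of oligodendrocytes, was the one gene that did not pass in either comparison with tissue. Its brighter probe set, 1435854_at, read 5.79, 5.47 and 5.57 in tissue, 5.64, 5.61 and 5.66 in cultured cells and 5.94, 5.92 and 5.77 in neurospheres. The groups of tissue and cultured cells overlapped, and the differences were 0.03 ± 0.0979 (adjusted p = 0.833) and 0.27 ± 0.108 (adjusted p = 0.0591). The other probe set, 1447487_at, lay between 2.72 and 3.06 on all 9 arrays. The tissue signal of both was within background, so these arrays set no level for Opalin in the tissue.

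**Figure D2:**
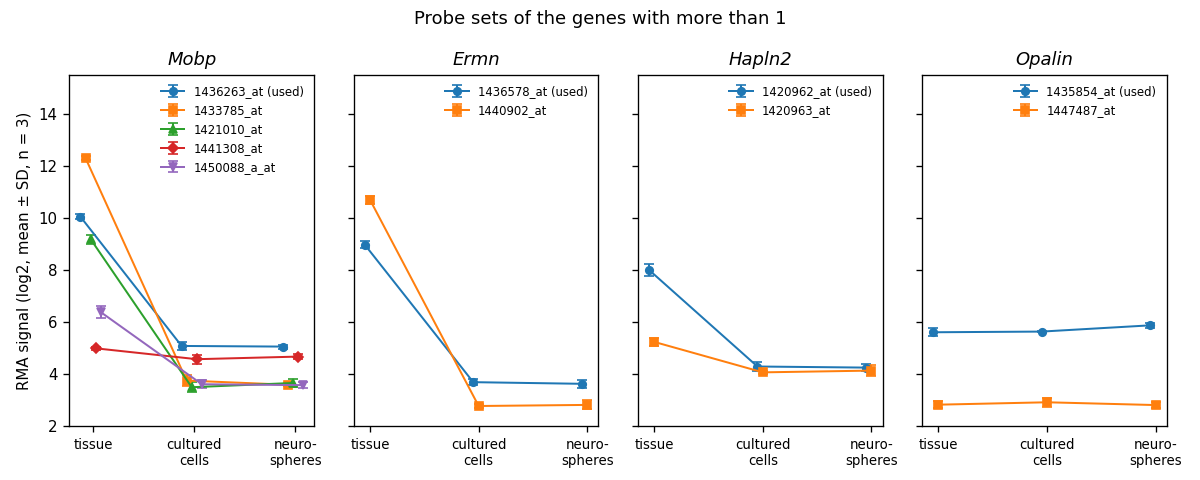
RMA signal (log2, mean ± SD, n = 3) of every probe set of the 4 genes that had more than 1, in tissue, cultured cells and neurospheres, with the probe set that stood for the gene marked as used. For Mobp, Ermn and Hapln2 most lines drop steeply from tissue to cultured cells and stay flat to neurospheres, while both lines of Opalin and 1 of Mobp stay nearly level throughout.

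Counted over probe sets, 14 of the 17 fell in cultured cells and 14 in neurospheres, where 19.7% and 18.8% of all probe sets fell. The 3 that did not fall were both of Opalin and 1 of Mobp. Between the cultures 2 of the 17 rose, where 8.14% of all probe sets rose. In tissue 12 of the 17 were above background, in cultured cells 1 and in neurospheres 2. The share of all probe sets above background was not taken.

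The transcription factors fell as the myelin genes did but differed in how far they stood above background in tissue. Olig1, which drives maturation of the lineage, read 10.24, 10.16 and 9.91 in tissue, 4.43, 4.30 and 4.23 in cultured cells and 4.99, 5.20 and 4.84 in neurospheres (1416149_at). The 3 groups did not overlap, although both cultures were within background. Its log2 fold change was -5.78 ± 0.108 (adjusted p = 1.92e-10) in cultured cells and -5.09 ± 0.126 (adjusted p = 5.59e-09) in neurospheres. Against background Olig1 was at least 20.3-fold and at least 20.7-fold lower.

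Olig2, which specifies the lineage and stays on in mature cells, was dimmer and more variable. It read 5.54, 6.45 and 6.19 in tissue (1416232_at), and its SD of 0.47 was the largest of the 10 genes in tissue, where the median SD was 0.18. The first of these tissue values was under the background level of 5.68. Values were 2.64, 2.59 and 2.59 in cultured cells and 2.87, 2.79 and 2.72 in neurospheres. The groups did not overlap and the fitted changes were -3.45 ± 0.195 and -3.27 ± 0.205, but the bound against background was only at least 1.23-fold and at least 1.26-fold lower.

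Nkx6-2, a homeodomain repressor that acts in late oligodendrocyte differentiation, read 5.20, 4.96 and 4.66 in tissue, 4.22, 3.91 and 4.06 in cultured cells and 4.20, 4.31 and 4.28 in neurospheres (1427420_at). Its tissue values lay above the culture values, and it passed the rule with -0.88 ± 0.14 and -0.68 ± 0.134. All 3 group means were within background, so no fold is given. Without tissue replicate 1 the change in neurospheres was -0.55 (adjusted p = 0.00521), under the fold threshold, which left 8 of the 10 genes called.

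Klk6, a secreted serine protease of oligodendrocytes, read 8.72, 9.07 and 9.22 in tissue, 4.33, 4.05 and 4.19 in cultured cells and 4.54, 4.56 and 4.51 in neurospheres (1448982_at). Tissue stood far above both cultures, with log2 fold changes of -4.82 ± 0.135 and -4.47 ± 0.129 and bounds of at least 9.52-fold and at least 9.70-fold lower.

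Aspa, the enzyme that splits N-acetylaspartate to release acetate and that other organs such as kidney also express, kept a measurable signal in culture. It read 10.68, 10.80 and 10.92 in tissue, 5.64, 6.18 and 6.13 in cultured cells and 6.36, 7.13 and 7.06 in neurospheres (1418472_at). The 3 groups did not overlap, although the lowest cultured value was under background. Aspa was 28.1-fold lower than tissue in cultured cells (log2 fold change -4.81 ± 0.144, adjusted p = 2.655e-09) and 15.4-fold lower in neurospheres (-3.95 ± 0.193, adjusted p = 2.719e-07).

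Between the cultures the differences were small. In neurospheres against cultured cells 2 of the 10 genes rose, Aspa and Olig1, and 0 fell, where 9.0% of all genes rose and 8.91% fell. The median log2 fold change was 0.19, beside 0.0512 over all genes. Aspa rose by 0.87 ± 0.223 on the log2 scale (adjusted p = 0.0172), with each neurosphere value above each cultured value. This call was lost without cultured cell replicate 1 (0.69, adjusted p = 0.0571), without neurosphere replicate 2 (0.73, adjusted p = 0.0538) and without neurosphere replicate 3 (0.76, adjusted p = 0.0630). Olig1 rose by 0.69 ± 0.111 (adjusted p = 0.00175), with both groups inside the background range, so the size carries no fold. Klk6 differed by 0.35 (adjusted p = 0.0190), under the fold threshold, and Mog by 0.06 ± 0.118 (adjusted p = 0.758).

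The 3 tissue arrays were not alike for these genes. Relative to its own tissue mean, the signal was lower on tissue array 1 for 6 of the 8 genes above background, with a median of -0.17 (log2). On tissue arrays 2 and 3 the medians were 0.091 and 0.082. The spread was widest for Olig2, from -0.52 on array 1 to 0.39 on array 2. Mobp and Olig1 ran the other way, at 0.12 and 0.14 on array 1. Tissue array 1 also had the highest 3' to 5' difference of actin, 3.07 against 2.67 and 2.38, and genes were below their tissue mean on it in 14 of 22 cases for other mature oligodendrocyte genes, 7 of 10 for progenitors, 7 of 12 for shared myelin, 5 of 9 for Schwann cells, 11 of 14 for astrocytes, 6 of 8 for microglia, 9 of 13 for neurons and 1 of 6 for brainstem neurons. The counts of these other lists took every measured gene, above background or not. Opalin and Nkx6-2, within background in tissue and left out of the 8, stood at 0.18 and 0.26 on array 1. The share over all genes was not taken, and with 3 arrays no relation between these values was tested.

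**Figure D3:**
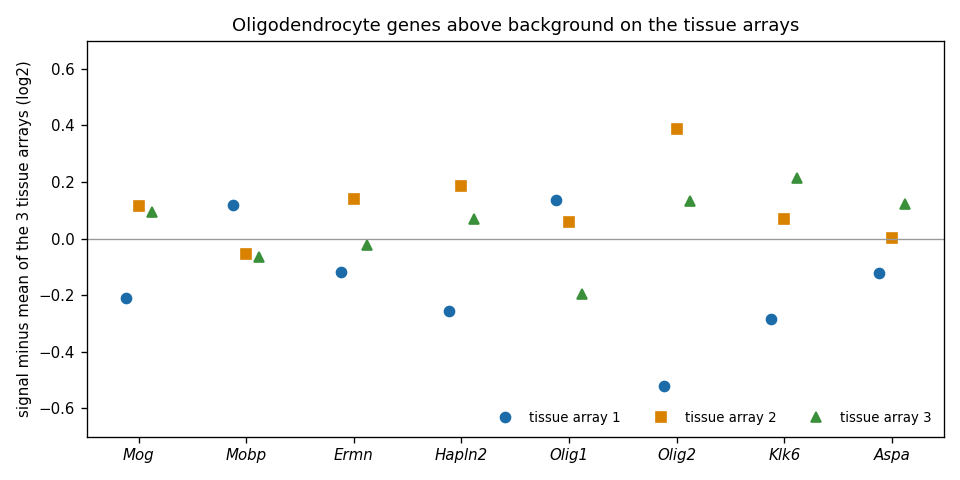
Difference of each tissue array from the mean of the 3 tissue arrays (log2 RMA signal), for the 8 genes above background in tissue, with a marker for each array. Array 1 is the lowest for 6 genes, by up to 0.52 for Olig2, and is the highest for Mobp and Olig1.

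Other genes of the lineage and of neighbouring cell types were set beside the 10. Of 22 further genes of mature oligodendrocytes, 20 fell and 1 rose in cultured cells and 21 fell and 0 rose in neurospheres, with medians of -2.68 and -2.47. Bcas1, a gene of newly myelinating oligodendrocytes, changed by -5.57 in cultured cells and -5.79 in neurospheres, and by -1.79 in each as the mean of its probe sets. Tppp, which promotes tubulin assembly in oligodendrocytes, changed by -3.60 and -5.39, and the orphan receptor Gpr37 by -4.75 and -4.31. Carns1, which makes carnosine, changed by -4.17 and -3.97. Anln, an actin-binding protein of cytokinesis that is also in central myelin, rose by 1.24 in cultured cells and fell by 0.88 in neurospheres, and as the mean of its probe sets the rise was 0.44 and no longer called. Tppp and Gpr37 were within background in both cultures, so their values are fitted differences and not measured folds. Of the 22 genes, 10 were above background in cultured cells and 12 in neurospheres, beside 1 and 2 of the 10.

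Between the cultures 2 of these 22 genes rose and 4 fell, where 9.0% of all genes rose and 8.91% fell. Named after their values were seen, those that rose were Sox8 and Evi2a, and those that fell were Anln, Tppp, Tspan2 and Ppp1r14a, of which Tppp and Ppp1r14a were within background in both cultures. Sox8, a transcription factor related to Sox10, read 4.55, 4.19 and 4.51 in cultured cells and 5.37, 6.81 and 6.89 in neurospheres, a fitted rise of 1.94 ± 0.363 (adjusted p = 0.00371). Its cultured cell values and the lowest neurosphere value were within background, which leaves a rise of at least 1.52-fold. The methods' t-test did not call Sox8 once its p-values were adjusted by Benjamini and Hochberg's method (adjusted p = 0.0624). Evi2a, a membrane protein gene that lies in an intron of Nf1, read 4.06, 4.52 and 4.91 in cultured cells and 7.37, 7.28 and 6.79 in neurospheres, a fitted rise of 2.65 ± 0.226 (adjusted p = 5.36e-05) that was 1.31 as the mean of its probe sets. The cultured cell values were within background, which leaves a rise of at least 2.62-fold. For both genes that rose the groups did not overlap.

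Of 10 genes of oligodendrocyte progenitors, 7 fell and 1 rose in cultured cells, and 7 fell and 2 rose in neurospheres, with medians of -1.65 and -2.19. Lhfpl3 changed by -6.64 and -6.34, and the brain proteoglycan Bcan by -4.50 and -4.84, with both genes within background in both cultures. The Bcan probe set was of a kind that can share probes with other genes, and without such probe sets Bcan changed by -1.97 in each culture. The receptor-type phosphatase Ptprz1 changed by -1.13 and, to a level within background, by -4.32. The matrix proteoglycan Vcan, which fibroblasts also make, rose by 4.83 and 5.12, and by 2.05 and 2.11 as the mean of its probe sets. Pdgfra, the receptor that marks progenitors and also fibroblasts, read 11.20, 11.32 and 11.27 in tissue, 11.88, 11.66 and 11.85 in cultured cells and 11.96, 12.06 and 12.09 in neurospheres. It rose by 0.77 in neurospheres, while its change of 0.53 in cultured cells was under the fold threshold. That change was called as the mean of its probe sets (1.24) and without cultured cell replicate 2 (0.60).

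**Figure D4:**
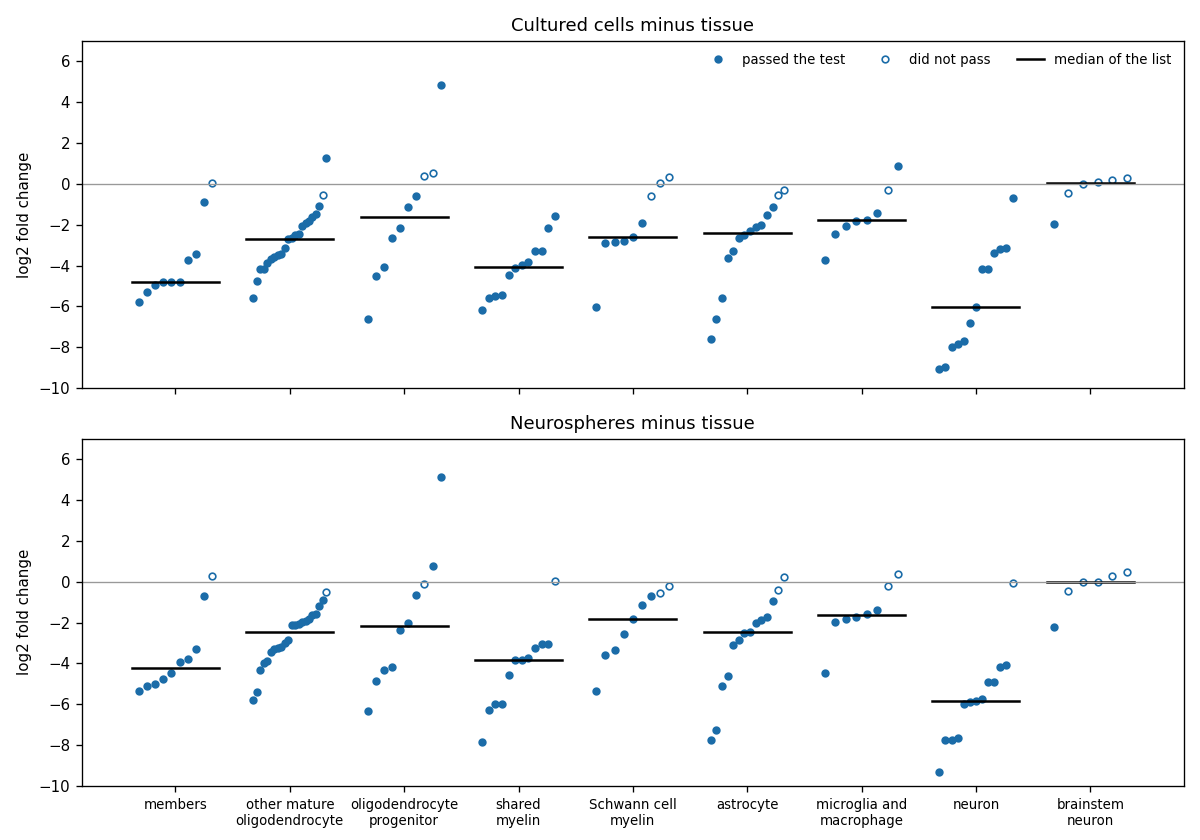
Log2 fold change of each measured gene of 9 lists in cultured cells (top) and neurospheres (bottom) against tissue, with filled points for genes that passed the test, open points for those that did not, and a line at each list's median. The median of the 10 genes lies at -4.82 and -4.21. Most of the 10 were within background in culture, so the medians of the lists have no measured order.

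Myelin genes that oligodendrocytes share with Schwann cells fell as a rule. All 12 measured fell in cultured cells (median -4.05) and 11 of the 12 in neurospheres (median -3.84), Cd9 being the one that did not pass there (0.01). Ugt8a, which makes galactosylceramide, changed by -5.46 and -7.83, myelin basic protein (Mbp) by -5.49 and -6.29, Fa2h, which hydroxylates the fatty acids of myelin lipids, by -6.16 and -5.97, and the proteolipid Mal by -5.56 and -5.99. Fa2h in both cultures and Ugt8a in neurospheres were within background, and as the mean of its probe sets Ugt8a changed by -3.08 and -4.39. Of 9 genes of Schwann cell myelin, 6 fell in cultured cells (median -2.60) and 7 in neurospheres (median -1.83), and 0 rose. Ncmap changed by -6.02 and -5.34, Pmp22 by -2.85 and -3.59, Drp2 by -2.81 and -3.36 and the ligand Dhh by -2.88 and -2.57, or by -1.26 and -1.16 as the mean of its probe sets. Of the Schwann cell genes, 8 of 9 were still above background in cultured cells and 7 of 9 in neurospheres. No difference between these lists was tested.

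Markers of other cells moved in the same direction. Of 14 astrocyte genes 12 fell in each culture, with medians of -2.40 and -2.48, among them Aqp4, Gjb6, Aldoc and Slc1a2. Of 8 genes of microglia and macrophages 6 fell in each culture, among them Csf1r, Sall1, Cx3cr1 and P2ry12, while Tmem119 rose by 0.87 in cultured cells. The 13 neuron genes, among them Nefh, Snap25, Calb2 and Pvalb, all fell in cultured cells and 12 fell in neurospheres, with medians of -6.00 and -5.83. The part of cell composition in the fall of the 10 genes was not tested.

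The profile of Mog over the 9 arrays, each gene centred on its own mean, was compared with that of every gene outside the 10. The 5 most alike were Fam169a, with a root mean square difference of 0.110 (log2), Snhg11 with 0.113, A530058N18Rik with 0.131, Rims3 with 0.140 and Asb13 with 0.151. Among the 10 genes, Klk6 at 0.201, Mobp at 0.212 and Ermn at 0.268 were closest to Mog. Of all genes 23, 32 and 78 were closer than these. Rims3, among the closest, encodes a presynaptic protein of neurons. Mog was within background in both cultures, so this ranking rests on the size of a fitted fall and not on measured levels there.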

How the data were processed

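RNA of 3 tissue, 3 cultured cell and 3 neurosphere samples had been hybridised to Affymetrix Mouse Genome arrays. The deposited values are log2 signals that the authors computed by RMA with Affymetrix Expression Console. The labels name MAS5 as well and give no versions. Of 45101 probe sets, 64 were controls, 34945 named 1 gene, 932 several and 9160 none. For each of 18193 genes the brightest of its probe sets, by the average of all 9 arrays, stood for the gene, which was a choice for 9010 genes. Each comparison was fitted on its own 6 arrays in R 4.3.3 by limma 3.58.1 (lmFit, then eBayes with its default prior, 2-sided), with no filter on low values. A Student test, as in the study's methods, was an alternative.

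Log2 fold changes are differences of group means. A gene passed with a Benjamini-Hochberg p below 0.05 together with a change of more than 1.5-fold. Bounds written as "at least" set the mean of the brighter group against the 95th percentile of the background probe sets in the other group. The brighter group was neurospheres for Sox8 and Evi2a and tissue for all other bounds. All 10 members and every probe set of theirs are named. Of each other list up to 4 called genes with the largest changes are named, with any called against the direction of their list, and the 5 genes most like Mog. Of the list genes, 10 were not analysed here. The members and all lists were chosen with earlier results of these data known, so the counts are no independent evidence. On simulated data 200 of 18193 genes were changed. Of these changes, 85% of size 1 and 98% of size 2 (log2) were recovered for cultured cells against tissue. In the data themselves 3707 genes were called higher and 4011 lower in that comparison. The simulation did not model signals at background, so its recovery holds for the simulated setting only. The number of arrays limits the precision. Alternatives covered the unit of a gene, shared probe sets, scaling, dim genes, the fit, the thresholds, a replicate block and each array left out.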

Additional observations from a re-analysis of the deposited data

How the results depend on the processing

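The fall of 9 of the 10 genes against tissue was kept in number under every alternative run but those named here. Dropping the dimmest 40% of genes left 3 of the 10 to test, and 3 fell in each comparison with tissue, with medians of -4.96 in cultured cells and -4.99 in neurospheres and of 0.69 between the cultures. It also lowered the fallen counts of other mature oligodendrocyte genes to 8 and 10, of progenitor genes to 4 and 4, of astrocyte genes to 7 and 7 and of microglia genes to 1 and 1, because fewer genes were tested. Between the cultures it left 0 other mature genes higher and 2 lower. With the mean of all probe sets the median of the 10 genes in cultured cells was -4.65, 0 other mature genes and 2 progenitor genes rose there, and 1 astrocyte gene rose in neurospheres, as it did without shared probe sets (1). With no fold threshold, 3 progenitor genes and 1 Schwann cell gene rose in cultured cells, 1 microglia gene rose in neurospheres, and 5 other mature genes rose between the cultures. With a fold threshold of 2, 8 of the 10 fell in each comparison with tissue, 0 microglia genes rose in cultured cells, 1 progenitor gene rose in neurospheres, and between the cultures 0 of the 10 rose and 2 other mature genes fell. The methods' t-test gave 9, 9 and 2 of the 10 at its unadjusted threshold. Adjusted, it gave 9 and 9 against tissue, called 1 of the 10 and 1 other mature gene higher between the cultures, and Aspa had an adjusted p of 0.116. Quantile normalization moved the median of all genes to 0.111 in cultured cells and 0.125 in neurospheres (-0.0091 and 0.0474 before), and Nkx6-2 was then at -0.55 in neurospheres, under the fold threshold, which left 8 of the 10. Where no cause is given, the cause was not tested. No median of the 10 genes and no called value of a named gene changed sign. A change of sign in a value never called was not counted. Opalin in cultured cells was such a value, going from 0.03 to -0.06 when centred on the more highly expressed genes. Of the named genes' values under alternatives, 2312 kept the outcome of the main fit, called or not. Another 29 lost a call and 20 gained one.

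Leaving out each array in turn gave medians of the 10 genes from -4.89 to -4.71 in cultured cells, from -4.31 to -4.10 in neurospheres and from 0.15 to 0.22 between the cultures. The count that fell stayed at 9 in cultured cells and was 8 to 9 in neurospheres, the count that rose between the cultures was 1 to 2, and 1 to 2 progenitor genes rose in cultured cells. Whether like-numbered samples were paired cannot be settled from 3 arrays a group. For cultured cells and tissue, deviations of like-numbered arrays correlated at 0.2059, 0.0691 and 0.1267, and unlike-numbered ones at -0.1734 to 0.0845. For neurospheres and tissue, like-numbered arrays gave -0.0929, -0.0644 and -0.0587, and unlike-numbered ones -0.0183 to 0.0662. For the cultures, like-numbered arrays gave -0.1026, -0.1901 and 0.0398, and unlike-numbered ones -0.0859 to 0.2089. With the replicate number as a block, 9, 9 and 2 of the 10 genes were called. Signals within background limited the fold against tissue to a bound for 7 genes, and for Nkx6-2 and Opalin no fold could be given.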

Other observations

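Genes of brainstem and cerebellar neurons, whose cells border the central segment, were mostly near or within background. Of 6 such genes 2 were above background in tissue. Gad1 and Gad2, which make the transmitter GABA, averaged 4.76 and 3.80 in tissue (log2), and the glycine transporter Slc6a5 averaged 5.02 and the cerebellar GABA receptor subunit Gabra6 3.84. The 2 genes above background were Slc32a1 and Cbln1. Slc32a1 exceeded it only slightly in tissue, with a mean of 5.85 against 5.68. Its means in the cultures, 6.11 for cultured cells and 6.32 for neurospheres, were above background too, and no comparison called it. Cbln1, a synaptic organiser that granule cells secrete, stood further above, with 8.50, 8.33 and 8.33 in tissue. Cbln1 changed by -1.97 in cultured cells and -2.21 in neurospheres. Over the list, 1 of 6 genes fell in each comparison with tissue, where 22.0% of all genes fell in cultured cells and 21.0% in neurospheres, and 0 of 6 were called between the cultures.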
